A study of Mus musculus with 52 samples.

Results

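Erythroid genes were followed in mouse bone marrow from a study of radioprotection by prostaglandin E receptor agonists. The 38 genes are a named list of globin, haem synthesis, red cell membrane, blood group, transcription factor and maturation genes, and their rows were read from the count tables of 2 marrow fractions. A row was found for 33 of the 38, with 32 in haematopoietic stem cells (HSC) of 13566 genes and 33 in stroma of 15168 genes. RNA levels of Hba-a1, Hba-a2, Hbb-bs, Hbb-bt and the globin chaperone gene Ahsp were not analysed here, so the account of levels rests on the other erythroid genes. Of the 33, 3 were matched through a RefSeq synonym, and Tal2 had a row in stroma only, at 0.426 CPM or less.

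The 52 libraries came from 1 mouse each, and a group was made up of 2 males and 2 females. In the HSC fraction (SLAM-LKS cells sorted by flow cytometry) the mice received misoprostol, sulprostone with rivenprost, rivenprost, sulprostone or vehicle, and all 20 were irradiated. In the stroma fraction (magnetically enriched cells negative for CD45 and Ter119) the irradiated mice received these same 5 treatments or dmPGE2, and mice without irradiation received dmPGE2 or vehicle, which makes 32 libraries. Sulprostone is an agonist of the receptor EP3, rivenprost of EP4, misoprostol is a prostaglandin E analogue, and dmPGE2 is a stabilised prostaglandin E2, written PGE in the labels. Injection preceded total-body irradiation with 853 cGy by 30 min, and marrow was taken 1 h after it, so all groups shared an injection and a short interval. Agonist doses, mouse strain and age are not given in the sources used here. Library depth was 27376014 to 49173110 counts in HSC and 38031184 to 73695537 counts in stroma. CPM is the count of a gene scaled to a common library size with TMM factors, and a member is called changed at an adjusted p under 0.05 in edgeR's quasi-likelihood test over the whole table.

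Red cell precursors in marrow mature under erythropoietin, which acts through its receptor Epor, while the transcription factors Gata1 and Klf1 switch on the genes of haem, globin and the red cell membrane. Developing red cells take up iron through the transferrin receptor Tfrc and build haem in a chain of enzymes that Alas2 opens in the mitochondrion. Maturing cells then lay down band 3 (Slc4a1) and the spectrin skeleton, and late precursors carry large amounts of these transcripts. The Ter119 antibody marks late red cell precursors, and CD45 is the pan-leukocyte antigen encoded by Ptprc.

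The 250 bases upstream of the annotated start are shown for the enzyme, the 2 transcription factors and the receptor on which the results below turn (RefSeq, GRCm38.p6, 5′ to 3′ on the strand of the gene). They show which of these genes carry the letters of erythroid motifs near their start. Capitals mark AGATAA or AGATAG or TGATAA or TGATAG, the GATA motif, and CCNCNCCC, the CACCC motif bound by factors of the Klf1 kind, on either strand and with overlaps joined. The windows are Alas2 at chrX:150547167-150547416 (plus strand), Klf1 at chr8:84901732-84901981 (plus strand), Gata1 at chrX:7967911-7968160 (minus strand) and Epor at chr9:21963577-21963826 (minus strand).
Alas2: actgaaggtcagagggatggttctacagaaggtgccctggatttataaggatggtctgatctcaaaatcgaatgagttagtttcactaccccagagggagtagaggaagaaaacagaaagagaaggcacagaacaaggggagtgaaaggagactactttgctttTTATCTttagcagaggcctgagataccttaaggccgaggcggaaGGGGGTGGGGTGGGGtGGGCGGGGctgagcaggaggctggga
Klf1: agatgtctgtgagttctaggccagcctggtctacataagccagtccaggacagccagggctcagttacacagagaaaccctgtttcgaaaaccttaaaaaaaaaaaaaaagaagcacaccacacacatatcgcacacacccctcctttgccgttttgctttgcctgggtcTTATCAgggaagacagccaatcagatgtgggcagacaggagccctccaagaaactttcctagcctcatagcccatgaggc
Gata1: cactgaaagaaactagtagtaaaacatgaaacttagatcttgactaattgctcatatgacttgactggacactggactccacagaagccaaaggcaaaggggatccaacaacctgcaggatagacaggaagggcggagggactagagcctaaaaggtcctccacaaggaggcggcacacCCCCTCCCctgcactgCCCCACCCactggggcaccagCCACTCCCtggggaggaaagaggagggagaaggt
Epor: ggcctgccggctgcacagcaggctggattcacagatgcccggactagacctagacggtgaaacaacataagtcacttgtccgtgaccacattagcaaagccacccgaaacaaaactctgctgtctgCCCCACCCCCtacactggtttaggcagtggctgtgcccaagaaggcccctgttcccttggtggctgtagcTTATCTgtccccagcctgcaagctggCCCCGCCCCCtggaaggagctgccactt
Alas2 and Epor each held 1 GATA match and 4 CACCC matches, Klf1 held 1 GATA match, and Gata1 held 3 CACCC matches. The 29 members with a RefSeq window include Hba-a1, Hba-a2, Hbb-bs and Hbb-bt. Over 34 promoters of these 29 members, 17 (50%) held a GATA match and 19 (55.9%) a CACCC match. Among all 32851 promoters of the same length the shares were 26.5% and 45.9%. A match is a run of letters, not a bound site.

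Erythroid RNA was plentiful in the stroma libraries although the fraction was enriched for cells without Ter119. The members with a row summed to 8045 to 26416 CPM, with a median of 11912 CPM, which is 0.841% to 2.46% of all counts. Ptprc lay at 70.4 to 294 CPM, beside 6151 to 69097 CPM for the summed mesenchymal stroma markers. In these bulk samples a change in the number of cells of a type and a change of RNA per cell cannot be told apart.

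Within stroma the carbonic anhydrase genes were the most abundant members. Per kilobase of transcript their mean levels were 1469 CPM per kb for Car2 and 1436 CPM per kb for Car1. Alas2, the erythroid enzyme that opens haem synthesis, averaged 229.7 CPM per kb, and Slc4a1, the band 3 anion exchanger, 226 CPM per kb. Hemgn, an erythroid nuclear protein, followed at 185 CPM per kb, and Cpox, a later enzyme of the haem pathway, lay at 165 CPM per kb. Ermap, which carries the Scianna blood group in humans, averaged 120.5 CPM per kb. Mean levels of 3 regulators were lower, with Klf1 at 106, Gata1 at 92.4 and Epor at 23.8 CPM per kb. Tfrc averaged 94.1 CPM per kb, and Nifk, a nucleolar protein that binds Ki-67 and is not confined to red cells, 63.8 CPM per kb.

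These genes varied between mice of 1 group far more than most genes did. The SD of log2 CPM within groups had a median of 0.41 over the 32 members of at least 10 CPM, against 0.23 over all 9474 stroma genes at that level. That SD was 0.83 for Slc4a1 and 0.70 for Alas2. Over all 32 libraries, groups together, Slc4a1 ranged from 243 to 4069.7 CPM, a 16.8-fold span, and Alas2 from 123.997 to 1533 CPM, a 12.4-fold span. Next in span came the mitochondrial iron importer Slc25a37, which spanned 10.4-fold, and the red cell bisphosphoglycerate mutase Bpgm, which spanned 9.86-fold, both named after their values were seen. Gata1 and Klf1 were steadier than these genes. Gata1 ranged from 111 to 282 CPM, a 2.54-fold span, and Klf1 from 101 to 275 CPM, a 2.71-fold span. Their SD within groups was 0.28 and 0.36, the latter not far below the median of 0.41. Tfrc lay between Klf1 and Alas2 in span, with 259.8 to 1096 CPM.

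A few libraries held most of the extremes. The library of replicate 3 in mice given dmPGE2 without irradiation was the highest of 32 for 26 of 33 members (78.8%), against 12.4% of all genes. Replicate 4 of the same group was the highest for 4 more, Alas2 among them, against 6.62% of all genes. Replicate 4 of irradiated vehicle mice was the lowest for 12 members, against 2.1% of all genes. Replicate 4 of vehicle mice without irradiation was the lowest for 11 members, but it was also the lowest for 14.9% and the highest for 14.3% of all genes, and it held the highest sum of the mesenchymal stroma markers (69097 CPM). Taken in order of animal number, the mice were divided here into 4 runs, each of 1 sex and with 1 mouse of every group. The labels name no runs. HSC numbers are unbroken, and stroma numbers go on without a gap from run 1 to run 2 and from run 3 to run 4. In stroma, runs 2 and 3 are male and runs 1 and 4 are female. The numbers of a run are consecutive, except that in the fourth the 2 stroma mice without irradiation, which are replicate 4 of dmPGE2 and of vehicle, carry later numbers. The mouse of the third run was the highest of its group in at least 5 of 8 groups for 26 of 33 members, against 7.71% of all genes. Slc4a1 in that run exceeded the median of the other runs in 8 of 8 groups, by a median of 1.20 on the log2 scale.

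**Figure D1:**
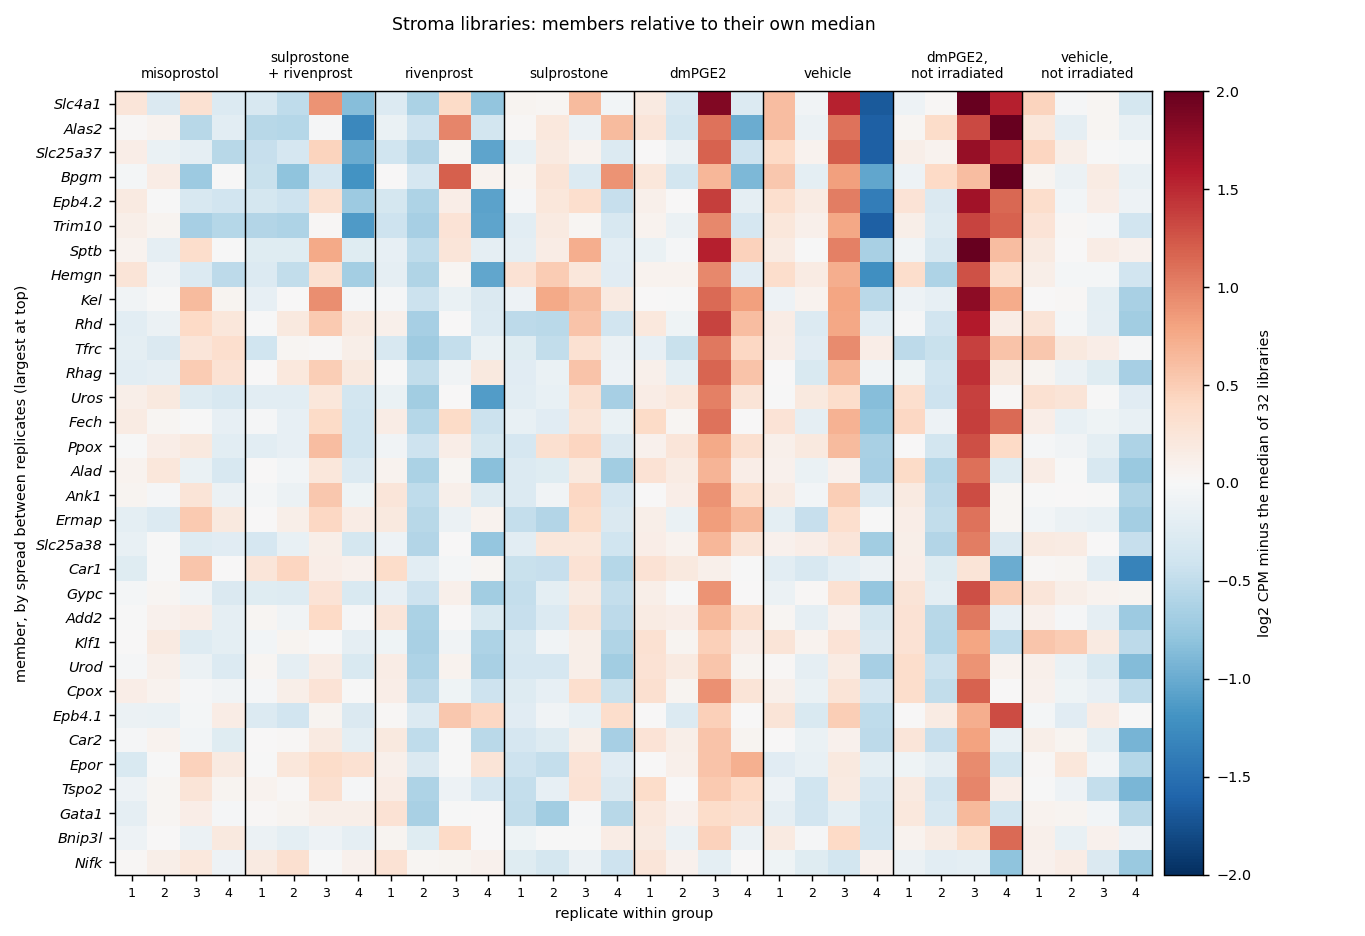
Levels of 32 members (rows) in 32 stroma libraries (columns, grouped by treatment), as log2 CPM minus the gene's median over the libraries; the colour scale saturates at 2 above and below. Replicate 3 of the mice given dmPGE2 without irradiation is the highest library for 26 of 33 members, and the rows at the top, led by Slc4a1, vary most within groups.

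No erythroid member was called with irradiation alone at 1 h. None of the 33 members was called in irradiated against non-irradiated vehicle mice, where 0.771% of all genes were called, and 0 members had an unadjusted p under 0.05, against 9.19% of all genes; DESeq2 called 0 as well. Slc4a1 stood at 1197, 737, 2266 and 243 CPM in irradiated vehicle mice, against 1057, 767, 801 and 611 CPM in vehicle mice without irradiation. The irradiated group held both the higher and the lower extremes, and its log2 fold change was 0.34 (adjusted p = 0.888, SE 0.52), with a 95% interval of -0.72 to 1.41. Alas2 stood at 591, 357, 823 and 123.997 CPM in irradiated vehicle mice, against 453, 339.6, 397 and 349 CPM without irradiation, a log2 fold change of 0.27 (adjusted p = 0.901, SE 0.46). Without replicate 4 of the non-irradiated vehicle mice the fold changes were 0.30 for Slc4a1 and 0.26 for Alas2. Both were below 0 without replicate 3 of the irradiated vehicle mice, at -0.091 for Slc4a1 and -0.084 for Alas2. Gata1 had 159.8, 137.9, 157 and 137.3 CPM with irradiation and 190.1, 187, 174 and 123.4 CPM without, a log2 fold change of -0.19 (adjusted p = 0.841, SE 0.19).

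By role, the fold changes with irradiation were mostly small. Over all 33 members the median log2 fold change was 0.10, where the median of all genes was -0.01, and 26 of 33 lay above 0, against 47.7% of all genes. The 4 blood group genes had a median of 0.28 and the 7 haem genes 0.13. Of the 5 transcription factor and receptor genes 1 lay above 0, with a median of -0.14. Outside the members, 20 further red cell membrane genes had 1 called, Art4, the carrier of the Dombrock blood group in humans, named after its value was seen. Art4 averaged 62.7 ± 6.81 CPM in irradiated and 24.9 ± 8.01 CPM in non-irradiated vehicle mice (SD, n = 4 each), a log2 fold change of 1.33 (adjusted p = 0.00866, SE 0.27). Without replicate 3 or replicate 4 of the non-irradiated vehicle mice its adjusted p was 0.0525 and 0.0605. Of 11 genes of the erythropoietin and STAT5 response 6 lay above 0, with a median log2 fold change of 0.04. The 1 called was the kinase gene Pim1, also named after its value was seen. Pim1 averaged 228 ± 41.1 CPM with irradiation and 108 ± 24.9 CPM without, a log2 fold change of 1.08 (adjusted p = 0.0193, SE 0.24). It was no longer called without replicate 1 of the irradiated vehicle mice (adjusted p = 0.116), or without replicate 3 or 4 of the non-irradiated vehicle mice (adjusted p = 0.112 and 0.0740). Mesenchymal stroma markers lay below 0 in 14 of 14 genes in this comparison, with a median of -0.71, and their part in these results was not tested.

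**Figure D2:**
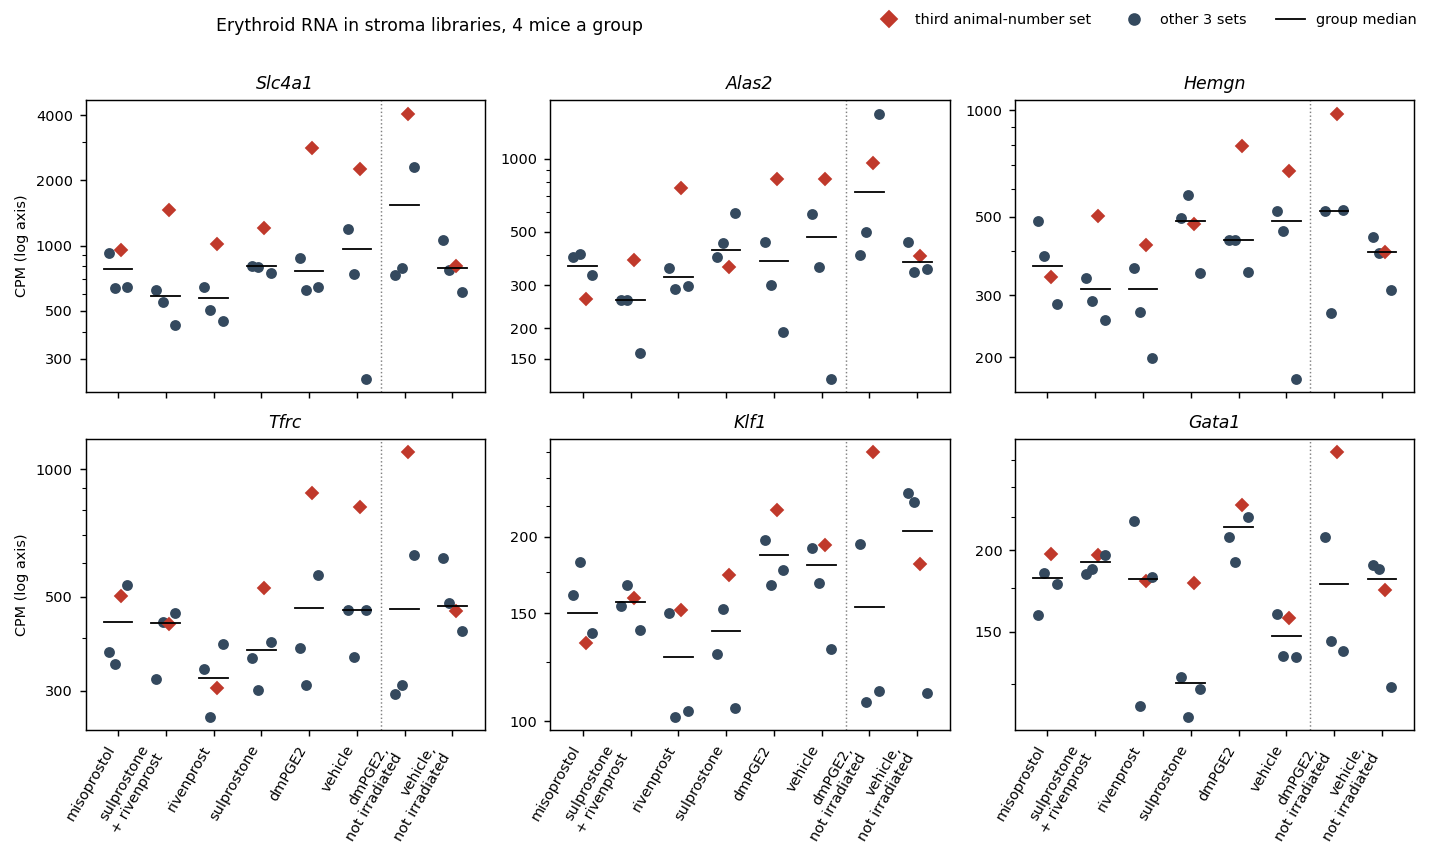
CPM on a log axis of Slc4a1, Alas2, Hemgn, Tfrc, Klf1 and Gata1 in each of the 8 stroma groups, 1 point per mouse, with red diamonds for the third run of animal numbers and a line at the group median. For Slc4a1 the diamonds stand above the other mice in most groups and reach 4069.7 CPM with dmPGE2 without irradiation, while Gata1 stays between 111 and 282 CPM.

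In stroma of mice without irradiation most members had higher values with dmPGE2 than with vehicle, but no member passed the test. None of the 33 members was called, where 3.76% of all genes were, and the smallest adjusted p was 0.0991, for Fech, the enzyme that inserts iron into haem. An unadjusted p under 0.05 was reached by 15 members, all of them higher, where 9.08% of all genes were higher by that rule, and 30 of 33 members lay above 0, where 50.9% of all genes did. Members had a median log2 fold change of 0.54, against 0.01 over all genes. In the fits with a mouse left out, low p-values were counted in both directions, unlike the 9.08% of higher genes. Without replicate 3 of the dmPGE2 mice the median of the members was 0.17. There 5 members had an unadjusted p under 0.05, where 13% of all genes did. Without replicate 4 of the dmPGE2 mice 11 members did, where 23.2% of all genes did. Without any 1 of replicates 2, 3 or 4 of the vehicle mice 8 members did. The share of all genes was 13.7% without replicate 4, and is not given here without replicate 2 or 3. Without replicate 2 of the dmPGE2 mice 25 members did, where 19.7% of all genes did. In that last fit 6 members were called (Ppox, Cpox, Tspo2, Fech, Urod and Kel), where 4.85% of all genes were. DESeq2 called 1 member (Fech), where it called 6.39% of all genes, and a replicate block for the runs of animal numbers called 3 (Fech, Urod and Epb4.1), where 7.59% of all genes were called.

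The higher values were uneven between mice. Slc4a1 stood at 727.4, 787.1, 4069.7 and 2294 CPM in mice given dmPGE2 without irradiation, against 1057, 767, 801 and 611 CPM in mice given vehicle without irradiation. Replicates 3 and 4 of the dmPGE2 mice stood above all vehicle mice and replicates 1 and 2 lay within their range. The log2 fold change was 1.21 (adjusted p = 0.228, SE 0.52), with a 95% interval of 0.13 to 2.29. Alas2 stood at 399, 500.2, 963 and 1533 CPM with dmPGE2, against 453, 339.6, 397 and 349 CPM with vehicle. The dmPGE2 mice stood above all vehicle mice for 3 of 4 libraries, with the highest in replicate 4, and the log2 fold change was 1.15 (adjusted p = 0.18, SE 0.46). Cpox had 640.0, 356, 1132 and 504 CPM with dmPGE2 and 528, 469, 447 and 350.1 CPM with vehicle, a log2 fold change of 0.54 (adjusted p = 0.232, SE 0.24). Hemgn averaged 572 ± 297 CPM with dmPGE2 and 386 ± 53.9 CPM with vehicle (SD, n = 4 each), a log2 fold change of 0.56 (adjusted p = 0.422, SE 0.33). Car2 averaged 3065 ± 1195 CPM with dmPGE2 and 2362 ± 677 CPM with vehicle, a log2 fold change of 0.38 (adjusted p = 0.426, SE 0.22).

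The fold changes differed in size between roles in that comparison. By role, the median log2 fold change was 0.56 for the 7 haem synthesis genes, 0.66 for the 7 membrane skeleton genes, 0.66 for the 4 blood group and Rh genes and 0.57 for the 6 enzymes and maturation genes, against 0.22 for the 3 iron and mitochondrial carrier genes and 0.20 for the 5 transcription factor and receptor genes. Hemgn is one of these last 5, as is Tal2 near the floor, and the 5 ranged from -1.45 to 0.56. Gata1 had 209.8, 145, 282 and 140.4 CPM with dmPGE2 and 190.1, 187, 174 and 123.4 CPM with vehicle, a log2 fold change of 0.20 (adjusted p = 0.641, SE 0.19). Klf1 had 195, 107, 275 and 112.1 CPM with dmPGE2 and 236, 228, 180.4 and 111 CPM with vehicle, a log2 fold change of -0.13 (adjusted p = 0.815, SE 0.23). In both genes the dmPGE2 mice held the higher extreme, in replicate 3, and the groups overlapped. Tfrc had 295, 309, 1096 and 627 CPM with dmPGE2 and 617, 484, 464 and 416 CPM with vehicle, a log2 fold change of 0.22 (adjusted p = 0.789, SE 0.33); the dmPGE2 mice lay both above and below all the vehicle mice. The difference between roles was not tested.

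Further red cell genes were counted in the same comparison. Of 20 further red cell membrane genes 20 lay above 0 with dmPGE2 without irradiation, 13 with an unadjusted p under 0.05, with a median log2 fold change of 0.56 and 0 called. Of the 4 further globin genes with a row 1 was called, Hbq1b, a theta globin gene with the near-identical copy Hbq1a, so that reads may be split between them; it was named after its value was seen. Hbq1b stood at 7.83, 6.49, 23.7 and 19.8 CPM with dmPGE2, against 6.37, 5.42, 5.27 and 5.27 CPM with vehicle, both without irradiation, and the groups did not overlap. It rose by a log2 fold change of 1.36 (adjusted p = 0.0345, SE 0.37), a call that was lost without replicate 3 (adjusted p = 0.145) or replicate 4 (0.101) of the dmPGE2 mice, and without replicate 2 (0.102), 3 (0.117) or 4 (0.0777) of the vehicle mice. The embryonic globin genes Hba-x and Hbb-y stayed at 1.08 CPM or less in every stroma library. Mitotic genes lay above 0 in 18 of 20, with a median of 0.24.

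Markers of other cells lay mostly below 0 in the same comparison. Granulocyte markers lay above 0 in 0 of 17 genes with a median log2 fold change of -0.38, megakaryocyte and platelet markers in 0 of 11 with -0.56, and mesenchymal stroma markers in 0 of 14 with -0.64. The summed granulocyte markers came to 1788, 8317, 1081 and 10997 CPM in the mice given dmPGE2 and 7628, 6338, 10664 and 4706 CPM in those given vehicle, so that replicate 3 of dmPGE2, the library richest in erythroid RNA, was also the poorest in granulocyte RNA of the 32. The summed mesenchymal stroma markers came to 21542, 15412, 13055 and 45898 CPM with dmPGE2 and 19184, 25189, 23806 and 69097 CPM with vehicle. The part of these cell types in the erythroid values was not tested.

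**Figure D3:**
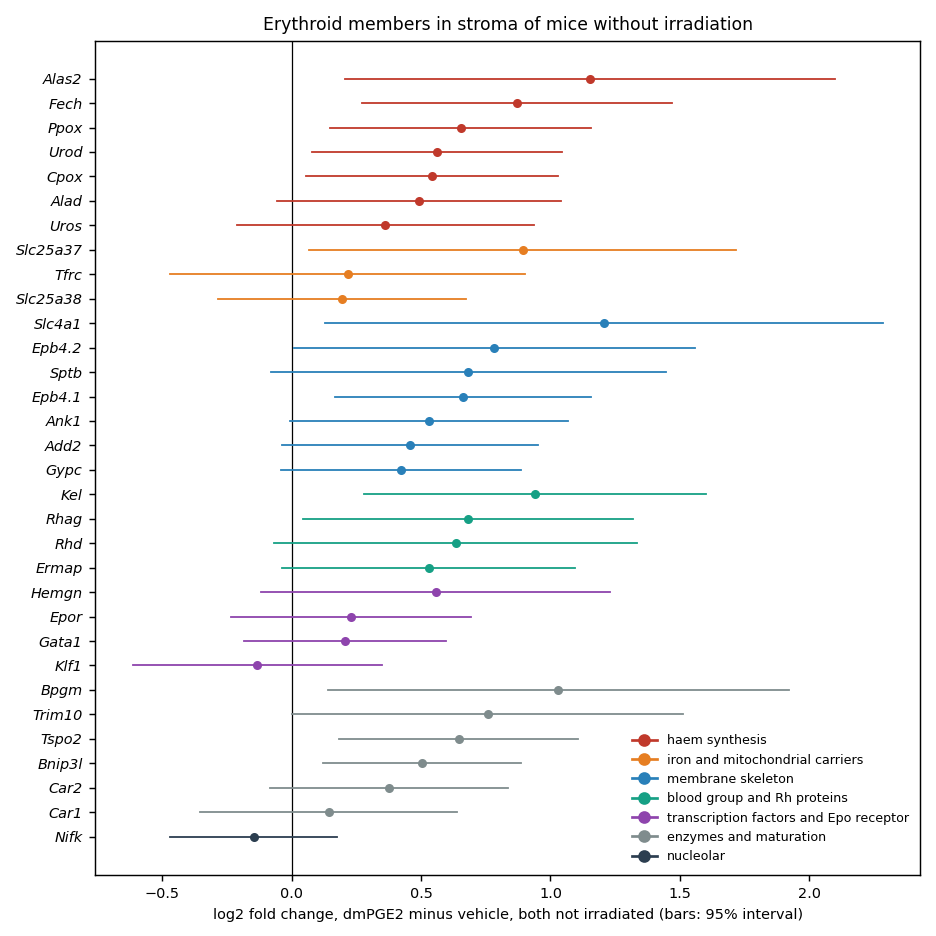
Log2 fold change of each member except Tal2 in stroma, dmPGE2 minus vehicle in mice without irradiation, with bars for the 95% interval and colours for the role. Tal2, near the floor, is not drawn but is among the 33 members counted. Points of the haem, membrane and blood group genes lie above 0, with 30 of 33 members above 0 in all, and no member passed the adjusted threshold.

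With irradiation too, most members had higher values with dmPGE2 than with vehicle, and no member passed the test. None of the 33 members was called, where 1.98% of all genes were, DESeq2 called 0 as well, and the smallest adjusted p was 0.147, for Gata1. The 33 members had a median log2 fold change of 0.35, against 0.02 over all genes, and 29 of 33 lay above 0, where 51.9% of all genes did. That median was 0.17 without replicate 3 of the dmPGE2 mice, the same as without replicate 3 of the dmPGE2 mice in the comparison without irradiation. Gata1 stood at 209, 192, 234 and 225 CPM with dmPGE2, against 159.8, 137.9, 157 and 137.3 CPM with vehicle, both irradiated. The 4 dmPGE2 mice all stood above the 4 vehicle mice, and the log2 fold change was 0.54 (adjusted p = 0.147, SE 0.19). Epor had 41.2, 44.2, 60.8 and 67.0 CPM with dmPGE2 and 35.0, 37.2, 47.0 and 36.0 CPM with vehicle, with overlap and a log2 fold change of 0.47 (adjusted p = 0.303, SE 0.23). Slc4a1 had 880.0, 621, 2811 and 644 CPM with dmPGE2 and 1197, 737, 2266 and 243 CPM with vehicle, and Alas2 had 454, 299.95, 820.5 and 194 CPM with dmPGE2 and 591, 357, 823 and 123.997 CPM with vehicle. In both of these the groups overlapped over most of their range, and replicate 3 was the highest mouse of each group. Groups did not overlap for 4 members, all higher (Alad, Add2, Gata1 and Car1), where 9.41% of all genes were higher in all.

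An unadjusted p under 0.05 was reached by 3 members in this comparison, all higher, where 8.99% of all genes were. It was reached by 1 to 7 members when each replicate was left out in turn, and the shares of all genes in those fits are not given here. The runs of animal numbers pair the mice here. With a replicate block for the runs 11 members reached it, where 21.8% of all genes did, and 0 were called. The 21.8% counts both directions, unlike the 8.99% of higher genes. Mitotic genes lay above 0 in 20 of 20 with dmPGE2 after irradiation, with a median log2 fold change of 0.37, and granulocyte markers in 0 of 17 with -0.45; their part was not tested. Art4 fell to 28.7 ± 4.44 CPM with dmPGE2, against 62.7 ± 6.81 CPM with vehicle, a log2 fold change of -1.13 (adjusted p = 0.0217, SE 0.27); the call was lost without replicate 1 (adjusted p = 0.0770) or 2 (0.0842) of the dmPGE2 mice and without replicate 2 (0.0547), 3 (0.0653) or 4 (0.0536) of the vehicle mice.

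Irradiation in mice given dmPGE2 was compared directly. None of the 33 members was called in irradiated against non-irradiated dmPGE2 mice, where 0.0461% of all genes were, and 4 members had an unadjusted p under 0.05, where 5.86% of all genes did. Alas2 had 454, 299.95, 820.5 and 194 CPM with irradiation and 399, 500.2, 963 and 1533 CPM without, a log2 fold change of -0.99 (adjusted p = 0.699, SE 0.46). Nifk had 149, 132.5, 109.5 and 126.6 CPM with irradiation and 115.8, 109, 109.6 and 71.8 CPM without, a log2 fold change of 0.35 (adjusted p = 0.699, SE 0.16). The median log2 fold change of the members was -0.02, and it was 0.32 without replicate 3 of the non-irradiated dmPGE2 mice. In the interaction of dmPGE2 with irradiation, which asks whether the dmPGE2 shift differs with irradiation, 0 of 33 members were called, where 0.0264% of all genes were, and 0 had an unadjusted p under 0.05, where 2.5% of all genes did. Alas2 had the smallest p, 0.0625 before adjustment, with an interaction of -1.25 (adjusted p = 1, SE 0.65). DESeq2 likewise called 0 members in both of these comparisons.

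The receptor agonists gave no called member in irradiated stroma. Against the same 4 irradiated vehicle mice, 0 of 33 members were called with sulprostone (0.105% of all genes), rivenprost (1.13%), sulprostone with rivenprost (3.09%) or misoprostol (0.916%), and DESeq2 also called 0. The median log2 fold changes of the members were -0.13, -0.16, -0.09 and -0.05 in that order, and these comparisons share their controls. An unadjusted p under 0.05 was reached by 0, 1, 0 and 0 members, where 3.93%, 9.96%, 17.9% and 11% of all genes reached it. The 1 member was Tfrc with rivenprost, at 338, 259.8, 304 and 387 CPM, against 465, 361, 813 and 464 CPM with vehicle, a log2 fold change of -0.69 (adjusted p = 0.498, SE 0.34). The highest rivenprost mouse lay within the range of the vehicle mice. With sulprostone and rivenprost together Gata1 stood at 184, 187, 196 and 197 CPM, against 159.8, 137.9, 157 and 137.3 CPM with vehicle, with no overlap and a log2 fold change of 0.37 (adjusted p = 0.309, SE 0.19). Gata1 and Car1 were the 2 members without overlap there, where 9.16% of all genes were higher in all. Alas2 had 262, 260.3, 381 and 158 CPM with both agonists and 591, 357, 823 and 123.997 CPM with vehicle, a log2 fold change of -0.83 (adjusted p = 0.334, SE 0.46).

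Slc4a1 under the agonists stayed within the range of the vehicle mice. It stood at 920.4, 638, 958 and 644 CPM with misoprostol, 624, 547, 1455 and 431 CPM with both agonists, 644, 503, 1014 and 449.9 CPM with rivenprost and 803, 799, 1202 and 745 CPM with sulprostone, against 1197, 737, 2266 and 243 CPM with vehicle. Replicate 3 was the highest mouse in each of these groups, as the plot of levels by group shows. Alas2 had 391, 405, 264 and 332 CPM with misoprostol, 354, 291, 757 and 298 CPM with rivenprost and 393, 449, 358 and 597 CPM with sulprostone, also within the range of the vehicle mice. The list of further red cell membrane genes held Slc2a1, a glucose transporter gene named after its value was seen. Whether its RNA came from red cell precursors was not tested. Slc2a1 averaged 29.3 ± 7.003 CPM with sulprostone and 11.4 ± 1.86 CPM with vehicle, a log2 fold change of 1.37 (adjusted p = 0.0436, SE 0.28). The call was lost without any 1 of the 8 mice (adjusted p of 0.0551 to 0.249). The runs of animal numbers pair these mice, and the call was also lost with a replicate block (adjusted p = 0.0743), with RLE size factors (0.072), with a mean CPM of at least 1 (0.0713) and with no sex term (0.0583). Art4 fell to 22.5 ± 4.68 CPM with both agonists, against 62.7 ± 6.81 CPM with vehicle, a log2 fold change of -1.48 (adjusted p = 0.00211, SE 0.27).

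Compounds were set against each other in 2 stroma comparisons, at doses not given in the sources used here. Between misoprostol and dmPGE2, both analogues of prostaglandin E, 0 of 33 members were called, as were 0% of all genes, and 0 members had an unadjusted p under 0.05, where 4.79% of all genes did. Slc4a1 had a log2 fold change of -0.54 (adjusted p = 0.831, SE 0.52) with a 95% interval of -1.61 to 0.53, and it was 0.055 without replicate 3 of the dmPGE2 mice. Between rivenprost and sulprostone 0 members were called, where 0.033% of all genes were, and Slc4a1 had a log2 fold change of -0.45 (adjusted p = 0.839, SE 0.52) with a 95% interval of -1.52 to 0.61. The 1 member with an unadjusted p under 0.05 was Nifk, where 8.53% of all genes reached it, with 154, 128.6, 130.8 and 133.3 CPM with rivenprost and 106, 98.3, 115.4 and 93.7 CPM with sulprostone. DESeq2 called 0 members in both comparisons. The Nifk values did not overlap, as was so for 3.39% of all genes, and its log2 fold change was 0.40 (adjusted p = 0.419, SE 0.16). Neither interval of Slc4a1 is narrow enough to show that the compounds act alike.

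In HSC the erythroid genes were uneven between libraries, and levels were not compared with those of stroma. The members with a row summed to 4135 to 17390 CPM, and to no more than 5333 CPM outside replicate 1 of the sulprostone mice. Outside that library Car2 made up most of the sum; over all 20 it lay at 2361 to 5104 CPM, and averaged 1589 CPM per kb. Nifk ranged from 129.4 to 384 CPM, Gypc, the glycophorin C gene of the membrane skeleton, from 66.2 to 175 CPM, Gata1 from 57.8 to 150.3 CPM and Epor from 15.4 to 62.3 CPM. Genes of late red cells were near the floor in many libraries: Sptb, the spectrin beta gene, was at 0 counts in 8 of 20 libraries and Kel, the Kell blood group protease gene, in 6, both named after their values were seen. The SD of log2 CPM within groups had a median of 0.79 over the 28 members with a mean of at least 10 CPM, against 0.42 over 9138 HSC genes. Some members reached that mean through replicate 1 of the sulprostone mice, such as Rhd, with a mean of 39.9 CPM and a median of 8.83 CPM. The same library raises their SD, so the contrast of 0.79 with 0.42 is partly set by the filter.

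The library of replicate 1 of the sulprostone mice stood apart. It was the highest of 20 for 26 of 32 members (81.2%), against 11.8% of all genes, and the members lay a median of 2.57 on the log2 scale above the median of the other libraries, where all genes lay at -0.02. Alas2 had 3645 CPM there, against 23.7 to 231 CPM with a median of 68.97 in the other 19 libraries. Rhd, the gene of the Rh polypeptide, had 612 CPM there, against 3.62 to 19.9 CPM with a median of 8.06 in the other 19 libraries. Slc4a1 had 464 CPM there, against 0 to 45.7 CPM with a median of 11.8 in the other 19 libraries. These 3 genes had no second library near that level. Klf1 had 274 CPM there, against 9.78 to 51.8 CPM with a median of 24.1 in the other 19 libraries. Slc25a37 had 382 CPM there, against 9.42 to 49.2 CPM with a median of 25.7 in the other 19 libraries. Tfrc had 76.6 CPM there, against 0.562 to 20.8 CPM with a median of 9.53 in the other 19 libraries. Car2, already abundant in HSC, had 5104 CPM there, against 2361 to 3123 CPM with a median of 2724 in the other 19 libraries.

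Gata1, Epor and Gypc did not stand out in that library. Gata1 had 109.8 CPM there, against 57.8 to 150.3 CPM with a median of 99.2 in the other 19 libraries. Epor had 43.3 CPM there, against 15.4 to 62.3 CPM with a median of 30.8 in the other 19 libraries. Gypc had 135.4 CPM there, against 66.2 to 175 CPM with a median of 116.2 in the other 19 libraries. Each lay within the range of the other libraries. Nifk was at its lowest of the 20 libraries, with 129.4 CPM there, against 149.5 to 384 CPM with a median of 237 in the other 19 libraries.

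Markers of several other blood cells were highest in the same library, while the summed HSC markers were lowest. The summed granulocyte markers came to 14263 CPM there, against 208 to 781 CPM in the other libraries, with 15 of 16 genes highest and 0 at 0 counts. Monocyte and macrophage markers summed to 5737 CPM, against 644 to 1113 CPM, and B cell markers to 304 CPM, against 22.6 to 92.4 CPM. HSC markers summed to 1557 CPM there, where the median of the 20 libraries was 2458 CPM, and of 12 such genes 3 were lowest and 0 highest there. The library had the lowest depth of the fraction, 27376014 counts. What put this RNA into the library was not tested.

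**Figure D4:**
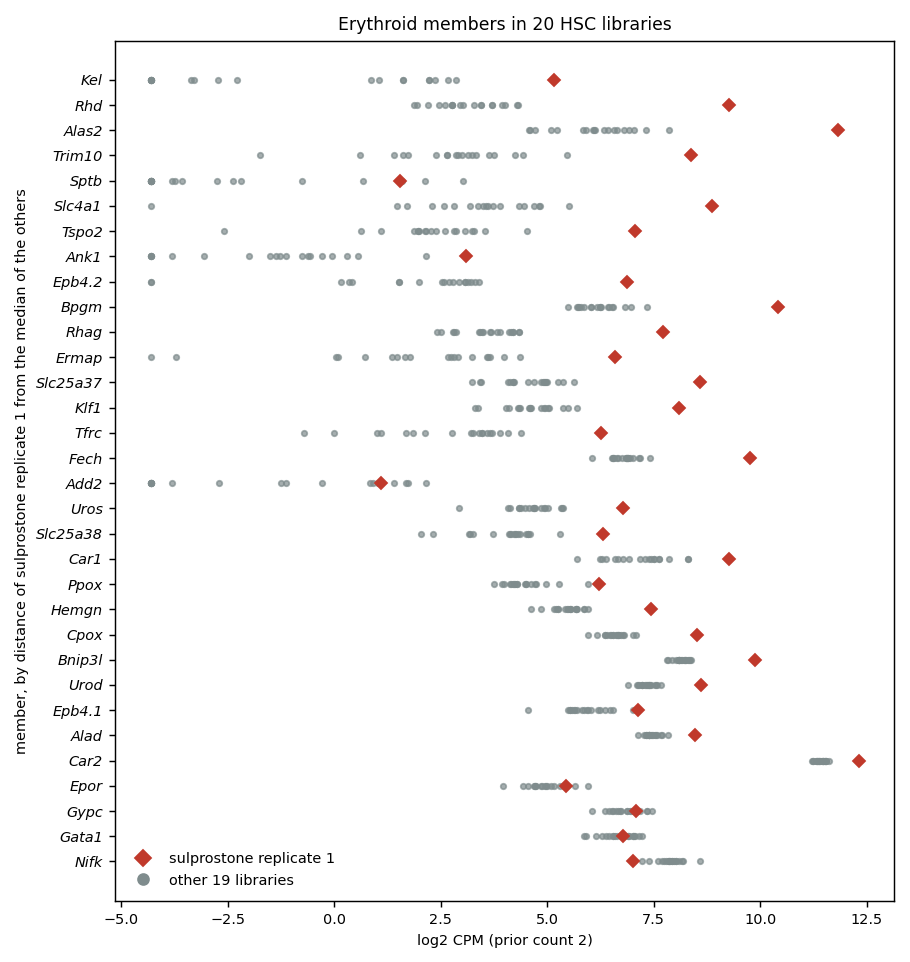
Log2 CPM of the 32 members in 20 HSC libraries, with members ordered by how far sulprostone replicate 1 (red diamonds) lies from the median of the other 19 libraries (grey points). The diamond is the rightmost point for 26 of 32 members; Gata1, Epor and Gypc keep it within the grey points and Nifk has it leftmost.

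The comparison of sulprostone with vehicle in HSC rested on that library. None of the 32 members was called, where 0.0147% of all genes were, and 12 had an unadjusted p under 0.05, all higher, where 2.78% of all genes were. Members had a median log2 fold change of 1.27, with 31 of 32 above 0, where 51.6% of all genes were. Without replicate 1 of the sulprostone mice the median was 0.02. In the fits with a mouse left out, low p-values were counted in both directions, unlike the 2.78% of higher genes. The fit without replicate 1 of the sulprostone mice had 1 member under 0.05, where 3.41% of all genes were. Without replicate 3 of the sulprostone mice 21 members were under 0.05, where 5.39% of all genes were, and without replicate 3 of the vehicle mice 7 were, where 4.58% of all genes were. Within males, who include replicate 1, the median was 1.98, and within females 0.11. Alas2 had 3645, 34.1, 68.97 and 94.5 CPM with sulprostone, against 231, 24.2, 99.6 and 59.9 CPM with vehicle, a log2 fold change of 2.75 (adjusted p = 1, SE 1.01) that was -0.18 without that library. Rhd had 612, 4.54, 3.62 and 10.8 CPM with sulprostone and 19.5, 5.998, 10.8 and 6.74 CPM with vehicle, a log2 fold change of 3.34 (adjusted p = 1, SE 1.08) that was -0.48 without it. Slc4a1 had 464, 5.92, 10.3 and 2.74 CPM with sulprostone and 45.7, 3.22, 14.7 and 4.88 CPM with vehicle, a log2 fold change of 2.41 (adjusted p = 1, SE 1.19) that was -0.87 without it. In all 3 genes the other sulprostone mice lay within or below the range of the vehicle mice. Klf1 had 274, 51.8, 19.8 and 30.2 CPM with sulprostone and 30.7, 9.78, 28.8 and 41.2 CPM with vehicle, a log2 fold change of 1.67 (adjusted p = 1, SE 0.60), or 0.26 without that library. Slc25a37 had a log2 fold change of 1.61 (adjusted p = 1, SE 0.67), or 0.09 without it, and Gata1 one of 0.26 (adjusted p = 1, SE 0.28). DESeq2 called 2 members, Sptb and Kel, where 0.759% of all genes were called by it, and Sptb was at 0 counts in all 4 vehicle libraries.

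Low p-values were reached by 1 to 4 members with the other agonists in HSC, again against the same 4 vehicle mice. None of 32 was called with rivenprost (0.494% of all genes), sulprostone with rivenprost (0.545%) or misoprostol (0.251%), and 1, 3 and 4 members had an unadjusted p under 0.05, where 6.4%, 6.96% and 6.59% of all genes did. DESeq2 called Sptb in each and Kel with both agonists, where it called 1.72%, 2.22% and 1.73% of all genes. Gypc was the 1 member with such a p in each of the 3, and the controls shared by these comparisons give it 1 set of reference values. It had 87.7, 92.0, 107 and 104 CPM with misoprostol, 66.2, 81.4, 124.3 and 131.1 CPM with both agonists and 123.2, 102, 93.9 and 97.9 CPM with rivenprost, against 175, 163, 116.2 and 117.9 CPM with vehicle. All 4 misoprostol mice stood below all 4 vehicle mice, where 1.34% of all genes were lower in all. The log2 fold change was -0.55 (adjusted p = 0.584, SE 0.20) with misoprostol, -0.51 (adjusted p = 0.565, SE 0.20) with both agonists and -0.46 (adjusted p = 0.713, SE 0.20) with rivenprost. Epor had 49.97, 62.3, 41.9 and 34.1 CPM with misoprostol and 23.1, 42.3, 21.3 and 29.5 CPM with vehicle, a log2 fold change of 0.73 (adjusted p = 0.62, SE 0.28).

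Rivenprost was set against sulprostone in HSC as well. None of the 32 members was called, where 0.332% of all genes were, with the smallest adjusted p of 0.203 for Klf1, and 12 had an unadjusted p under 0.05, all lower, where 2.96% of all genes were. The median log2 fold change was -1.07, and 0.02 without replicate 1 of the sulprostone mice. In that fit 3 members were under 0.05 in either direction, where 4.38% of all genes were. Klf1 had 20.5, 23.6, 10.3 and 17.0 CPM with rivenprost and 274, 51.8, 19.8 and 30.2 CPM with sulprostone, a log2 fold change of -2.26 (adjusted p = 0.203, SE 0.61) that was -0.90 without that library. Alas2 had 80.7, 26.0, 67.8 and 56.9 CPM with rivenprost and 3645, 34.1, 68.97 and 94.5 CPM with sulprostone, a log2 fold change of -3.27 (adjusted p = 0.472, SE 1.06) that was -0.47 without it. Gypc had 123.2, 102, 93.9 and 97.9 CPM with rivenprost and 135.4, 163, 144 and 137.04 CPM with sulprostone, lower in all, where 2.38% of all genes were lower in all, with a log2 fold change of -0.48 (adjusted p = 0.721, SE 0.20). DESeq2 called Klf1 and Alas2 lower here (adjusted p = 0.00766 and 0.0261), where it called 1.27% of all genes.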

How the data were processed

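Raw read counts per gene, unnormalised per the file headers, were taken from the authors' tables of 20 HSC and 32 stroma libraries. Per the submitters' processing notes the tools were FastQC 0.11.5, STAR 2.5, featureCounts of Subread 1.5.1 and edgeR 3.36.0 with the mouse build mm10; no strand setting is named there, and overlapping or antisense genes may share reads. Another 52 columns, of log2 CPM, stayed unused. SMART-Seq v4 with 1 ng of RNA made the HSC libraries and KAPA mRNA HyperPrep with 100 ng the stroma libraries, per the labels' protocols, so levels are not tested across fractions.

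Counts were tested with edgeR 4.0.16 (R 4.3.3), by the robust quasi-likelihood test with TMM factors, in 1 model per fraction holding every group and sex, with Benjamini-Hochberg adjustment over all genes of the table. Log2 CPM used a prior count of 2, and 16 comparisons were made. Residual degrees of freedom were 14 for the HSC model and 23 for the stroma model. Both recovered known fold changes from simulated counts. Those counts varied less between libraries than the real ones and held no outlying library or run effect. The simulation therefore does not show how the models do at the spread of these data. P-values measure the spread between mice. Alternatives were DESeq2 1.42.0, RLE size factors, other terms, filters and subsets of libraries.

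The members and lists were chosen with earlier results of these data known, so no list is tested and a list is described by its counts and median beside all genes. Named members are any called, then Alas2, Slc4a1, Klf1, Gata1, Epor and Tfrc, then the most abundant member of each role in each fraction; other genes named were chosen after their values were seen. Mice of the same run of animal numbers (4 runs, the fourth completed by the 2 later-numbered non-irradiated stroma mice) deviated together (every pair over 0.1) in 7 of 15 comparisons, all in stroma. The mice of a run are of the same sex, and these deviations were not adjusted for sex. Promoters are from RefSeq.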

Additional observations from a re-analysis of the deposited data

Results flagged for a closer look

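Single libraries stood far from the other 3 of their group for 6 of 156 sets of 4 values, where chance flags about 1 in 20. In HSC, Alas2 was 23.7 CPM in replicate 2 of the misoprostol mice, against 121.1 to 159 CPM in the other misoprostol mice. Slc4a1 was 0 CPM in the same library, against 22.0 to 28.5 CPM in the others. The members together summed to 17390 CPM in replicate 1 of the sulprostone mice, against 4150 to 4872 CPM in the other sulprostone mice. In stroma, Slc4a1 was 1202 CPM in replicate 3 of the irradiated sulprostone mice, against 745 to 803 CPM in the others. Ermap was 324.3 CPM in replicate 4 of the non-irradiated vehicle mice, against 472 to 503 CPM. Nifk was 71.8 CPM in replicate 4 of the non-irradiated dmPGE2 mice, against 109 to 115.8 CPM.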

How the results depend on the processing

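The count of members called was 0 in all 16 comparisons and within 1.5 times of it in 288 of 296 repeats. The exceptions were DESeq2 in HSC, with 2 members for sulprostone, 2 for both agonists, 2 for rivenprost against sulprostone, 1 for rivenprost and 1 for misoprostol, and the non-irradiated dmPGE2 comparison in stroma, with 1 by DESeq2 (Fech), 3 with a replicate block (Fech, Urod and Epb4.1) and 0 to 6 when each replicate was left out. Same-numbered mice were not paired by the rule there (lowest correlation 0.096), and the replicate block changed no other call of a member. Summed members in sulprostone replicate 1 of HSC were 3.12 times the median of the others as a percent of all counts, against 3.69 times in CPM.

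Signs turned for the fold changes of some members. No member had been called in any comparison, so this does not show how steady a called fold change would be. With sulprostone replicate 1, vehicle replicate 2 and misoprostol replicate 2 left out of HSC, sulprostone against vehicle gave Alas2 -0.60, Klf1 -0.12, Rhd -0.57 and Slc4a1 -1.30; leaving out 1 replicate gave -0.18 to 3.23, 0.26 to 2.07, -0.48 to 3.88 and -0.87 to 3.09. Irradiated against non-irradiated vehicle gave Slc4a1 -0.22 and Alas2 -0.18 in females, -0.16 and -0.086 without the third run of animals (chosen after seeing the data), and -0.091 to 0.67 and -0.084 to 0.59 with 1 replicate left out. For dmPGE2 without irradiation, leaving out the third run gave Gata1 -0.027 and Tfrc -0.32, females gave Tfrc -0.14, and 1 replicate left out gave Gata1 -0.021 to 0.34, Klf1 -0.40 to 0.055 and Tfrc -0.26 to 0.44. Misoprostol against dmPGE2 gave Slc4a1 0.069 in females, 0.038 without the third run and -0.78 to 0.055 with 1 replicate left out. The cause of these changes was not tested. With 4 mice a group the 95% interval of a member reached a median of 1.20 to 1.25 either side in HSC on the log2 scale, and of 0.55 in stroma (0.77 for the interaction).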
